A study of Mus musculus with 48 samples.

Results

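The snoRNA host genes described here are 8 noncoding mouse genes, Gas5, Snhg1, Snhg3, Snhg5, Snhg6, Snhg8, Snhg12 and Zfas1. They were chosen by symbol as hosts reported to begin with a 5′ terminal oligopyrimidine-like (5′TOP-like) sequence, and each symbol matched 1 Ensembl identifier among the 50600 genes of the count tables. All 8 passed the filter on low counts, together with 13889 genes in all, of which 12111 were protein coding. Cytoplasmic and polysomal RNA was sequenced from mPDAC cells, a mouse pancreatic ductal adenocarcinoma line with a mixed FVB/N and C57BL6 background. The 3 treated cultures received 50 µM N6L, a pseudopeptide antagonist of nucleolin, for 48 h, and the 3 other cultures were non-treated (NT). Elongation was blocked with emetine before lysis, nuclei and mitochondria were removed by centrifugation, and each lysate gave 1 cytoplasmic aliquot and 1 pool of polysomal gradient fractions, 12 libraries in total. All cultures come from 1 line, so the p-values measure the spread between cultures of that line.

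Small nucleolar RNAs (snoRNAs) guide the modification and processing of ribosomal RNA, those of the C/D class mostly 2′-O-methylation and those of the H/ACA class mostly pseudouridylation. In mammals most of them are cut out of the introns of longer transcripts, the host genes. The spliced exons of a noncoding host have little coding capacity, yet several such RNAs carry a 5′TOP start, as ribosomal protein mRNAs do, and enter polysomes, where short open reading frames end early. Gas5, Snhg1 and Zfas1 are textbook cases of host RNAs that translation exposes to nonsense-mediated decay (NMD).

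A 5′TOP start is a C at the first transcribed base followed by a run of pyrimidines, so the starts of the annotated transcripts (GENCODE vM21, GRCm38) were searched on the transcribed strand for a C followed by at least 4 pyrimidines. For 7 of the 8 genes at least 1 annotated transcript begins this way, 13 of 77 transcripts in all. Among the protein-coding genes tested the share of genes was 10.9%, and among the ribosomal protein genes 45.5%. By transcript the share was 16.9% for the 8 genes, 2.12% for coding genes and 10.7% for ribosomal protein genes. Because the 8 genes were chosen as 5′TOP-like, their high share follows from the choice and is no separate result. The first bases of 1 such transcript of each gene follow, with the tract in capitals, since this sequence is the feature by which these RNAs were grouped; for Snhg1 the bases after the RefSeq start (GRCm38.p6) are shown, where the first pyrimidines are interrupted by an A.
Gas5 (chr1:161035166-161035194, plus strand): CTTTCggagctgtgcggcattctgagcag
Snhg1 (chr19:8723487-8723516, plus strand): ctcatttttccttgttcggggtaagtactc
Snhg3 (chr4:132353604-132353633, minus strand): CTCTCTaggcgtcgctctcttggtgtgctt
Snhg5 (chr9:88522859-88522888, minus strand): CTTTTacgacggagcctaagatattctttg
Snhg6 (chr1:9944089-9944118, minus strand): CTTTCTCggcagcgccgtagagcgcgagca
Snhg8 (chr3:123508375-123508404, minus strand): CCCTCgcgcgcaggctcttgggagagcgtc
Snhg12 (chr4:132308676-132308705, plus strand): CCTTTCTCgcttcatccgcggtccctgtct
Zfas1 (chr2:167063221-167063250, plus strand): CCTTTCgttccggcggctcctagagcgttt
These are annotated ends, not starts measured in mPDAC cells. The transcripts shown for Gas5, Snhg5 and Zfas1 are annotated as retaining an intron. For Snhg3, Snhg5, Snhg6, Snhg8 and Zfas1 a single annotated transcript begins at a tract, and for Gas5 it is 5 of 25.

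The tracts range from 5 bases (Gas5, Snhg5, Snhg8) to 8 bases (Snhg12). The 8 genes lie on 6 chromosomes and are short, with a spliced transcript (the longest one without a retained intron) from 528 bases in Snhg8 to 1538 bases in Snhg12 and a GC content from 41.5% in Snhg6 to 57.0% in Zfas1. The annotation places 32 snoRNA genes inside them on the same strand. Gas5 holds 10, Snhg1 8, Snhg12 5, Zfas1 3, Snhg3 and Snhg5 2 each, and Snhg6 and Snhg8 1 each. These are annotated entries, and Snord80 in Gas5 and Snora16a in Snhg12 each have 2 overlapping entries. Snhg3 holds the H/ACA snoRNAs Snora73a and Snora73b, and Snhg8 holds Snora24, also of the H/ACA class. Snhg5 holds the C/D snoRNAs Snord50a and Snord50b and Snhg6 holds Snord87, whereas Snhg12 holds both classes. Some of these RNAs share sequence with neighbours. Snhg3 and the same-strand coding gene Rcc1 have 135 exonic bases in common, and the Zfas1 exons overlap 82 bases of the opposite-strand gene Znfx1. Of the 986 annotated exon bases of Snhg3, 705 are shared with the opposite-strand lincRNA gene Gm17300. Snhg6 shares 127 with the opposite-strand gene Mcmdc2, and Zfas1 shares 189 with the same-strand entry Gm27494. Reads of bases shared on the same strand match both genes whatever the strand setting. For the opposite-strand overlaps the assignment depends on the strand setting of the counting, which is not given in the sources used here.

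The libraries held 19519911 to 44972333 counts, and the member with the fewest counts, Snhg3, had 562 to 1458 per library. In the cytoplasm the 4 markers of ductal epithelium that passed the filter included Krt8, Krt18 and Krt19 at high levels, whereas Epcam was close to 0; the summed markers of fibroblasts, leukocytes and endothelium stayed at or below 2.43 on the counts-per-million (CPM) scale in every library. N6L culture 3 stood apart in its polysome-to-cytoplasm ratios: the middle 50% of coding genes spanned 1.54 log2 units there, against 0.600 and 0.920 in N6L cultures 1 and 2 and 0.474 to 0.528 in the NT cultures.

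In non-treated cells the host RNAs ranked among the abundant transcripts. Per kilobase of spliced transcript, Gas5 was the highest member in the NT cytoplasm with 1570 ± 212 CPM per kilobase (SD, n = 3), above 99.6% of the coding genes tested. Snhg1, with 894 ± 143, and Zfas1, with 885 ± 137, followed and did not differ beyond their spread. Snhg8 reached 444 ± 67.0 CPM per kilobase. Snhg5 (213 ± 15.0), Snhg12 (176 ± 37.5) and Snhg6 (140 ± 9.72) formed a chain in which each overlapped the next, and Snhg3, the host of the H/ACA RNA U17, was lowest with 69.5 ± 25.4. This order depends on the length used, since counts per gene can come from any annotated exon. All annotated exons together span 3760 bases in Gas5, 2969 in Snhg1 and 2929 in Zfas1, but 853 in Snhg8. The spliced lengths used were 665, 709, 738 and 528 bases. Together the 8 genes took 0.315 ± 0.0211% of the NT cytoplasmic counts and 0.323 ± 0.0459% of the NT polysomal counts. In N6L cells these shares were 0.167 ± 0.00295% and 0.220 ± 0.0314%.

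**Figure D1:**
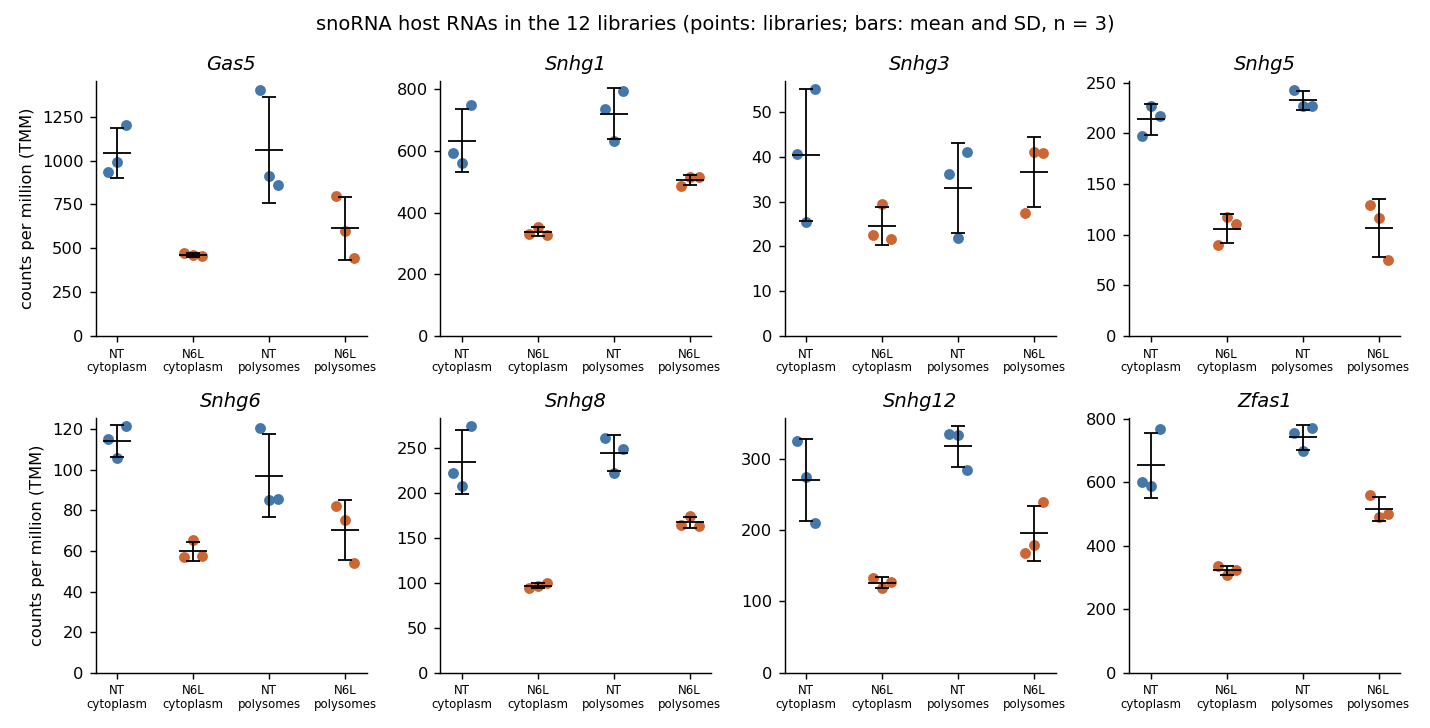
Level of each host RNA in CPM after TMM scaling (vertical axes from 0, 1 panel per gene) in NT (blue) and N6L (orange) cytoplasm and polysomes. Points are libraries and bars the mean and SD of 3 cultures. In the cytoplasm the N6L points lie below all NT points for 7 of 8 genes, with Snhg3 as the exception, whereas Snhg3 in polysomes overlaps between treatments.

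The first question was how N6L changed the amount of each host RNA in the cytoplasm. Of the 8 genes 7 fell, each to between 41.3% and 53.2% of its NT level, and none rose; of all genes tested 13.8% fell and 14.5% rose (edgeR's quasi-likelihood test, Benjamini-Hochberg adjusted p, here FDR, under 0.05). With an offset for transcript length and GC content 4 of the 7 passed, where 2148 of 13889 genes fell and 1832 rose. A median log2 change of −1.01 over the 8 genes stood beside 0.04 over all genes. A CPM value is a share of a library, and in bulk RNA fewer cells with a transcript and less of it per cell cannot be told apart.

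Snhg8 had the lowest fitted value without the offset, within 1 SE of that of Gas5, and with the offset Snhg12 had the lowest. The cytoplasmic CPM of Snhg8 was 222, 207 and 274 in NT cultures 1, 2 and 4 and 94.0, 96.7 and 99.6 in N6L cultures 1, 2 and 3, so the treatments did not overlap and the treated values lay close together. The fitted log2 change was −1.28 ± 0.14 (SE, edgeR FDR = 0.000444). Gas5, named for its accumulation in growth-arrested cells, had 935, 994 and 1203 CPM in the NT cytoplasm and 471, 461 and 453 CPM under N6L. All Gas5 values of treated cells were below the lowest NT value, with a log2 change of −1.18 ± 0.22 (edgeR FDR = 0.00325). Snhg12 went from 325, 276 and 210 CPM to 133, 119 and 128 CPM, a log2 change of −1.10 ± 0.18 (edgeR FDR = 0.00191).

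Zfas1, transcribed from the start region of Znfx1 and host of Snord12, had 602, 588 and 770 CPM in the NT cytoplasm and 335, 309 and 324 CPM under N6L. Its log2 change was −1.02 ± 0.14 (edgeR FDR = 0.000949). Snhg5 changed by −1.01 ± 0.19 on the log2 scale, from 197, 227 and 217 CPM to 89.9, 117 and 111 CPM (edgeR FDR = 0.00292). Snhg6 changed by −0.93 ± 0.18, from 115, 106 and 122 CPM to 56.9, 65.4 and 57.6 CPM (edgeR FDR = 0.00406). Snhg1, host of Snord22, changed by −0.91 ± 0.15, from 592, 560 and 749 CPM to 331, 354 and 327 CPM (edgeR FDR = 0.00179). For these 4 genes too, every N6L value was below every NT value.

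Snhg3 did not pass the test. It had 40.7, 25.5 and 55.0 CPM in the NT cytoplasm and 22.6, 29.4 and 21.7 CPM under N6L, and NT culture 2 lay within the treated range. The log2 difference was −0.72 ± 0.28 (edgeR FDR = 0.0700). It passed with DESeq2 (FDR = 0.0373), and without NT culture 2 the difference was −0.96 (edgeR FDR = 0.0156). Groups without overlap in the cytoplasm, N6L below NT, were seen for 7 of 8 host genes and for 25.6% of all genes.

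In polysomes the median fall was smaller, and fewer members were called. Whether the change differed between the 2 fractions was tested further below, and no member passed that test. Of the 8 genes 6 fell (edgeR FDR under 0.05), where 3.66% of all genes fell, and none rose, against 6.01% of all genes; the median log2 change was −0.53. Snhg5 fell from 243, 227 and 227 CPM in NT polysomes to 129, 116 and 74.5 CPM under N6L. Its log2 change of −1.12 ± 0.19 (edgeR FDR = 0.00411) was close to the cytoplasmic one, and it was the single member called when only the polysomal libraries were fitted. Gas5 had 1406, 912 and 859 CPM in NT polysomes and 798, 598 and 443 CPM under N6L, a log2 change of −0.79 ± 0.22 (edgeR FDR = 0.0396). The spread of Gas5 was wide in both groups, and NT culture 1 lay far above the other NT cultures.

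Snhg12 changed by −0.70 ± 0.18 (edgeR FDR = 0.0287), Snhg8 by −0.55 ± 0.14 (edgeR FDR = 0.0287), Zfas1 by −0.52 ± 0.14 (edgeR FDR = 0.0345) and Snhg1 by −0.51 ± 0.15 (edgeR FDR = 0.0429) on the log2 scale. Snhg6 missed the threshold with −0.46 ± 0.18 (edgeR FDR = 0.126). Its polysomal CPM was 121, 84.9 and 85.6 in NT cells and 82.3, 75.4 and 53.9 in N6L cells, without overlap. Snhg3 had 36.1, 21.9 and 41.1 CPM in NT polysomes and 27.5, 41.1 and 40.9 CPM under N6L, a difference of 0.14 ± 0.28 (edgeR FDR = 0.783) whose sign turned to −0.08 without NT culture 2. Non-overlapping polysomal levels, N6L below NT, were found for 7 of 8 members and 11.9% of all genes. Leaving out any 1 of the 6 cultures reduced the 6 calls to between 1 and 3. Over all genes, the 508 lower calls became between 17 and 695 in the same fits.

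**Figure D2:**
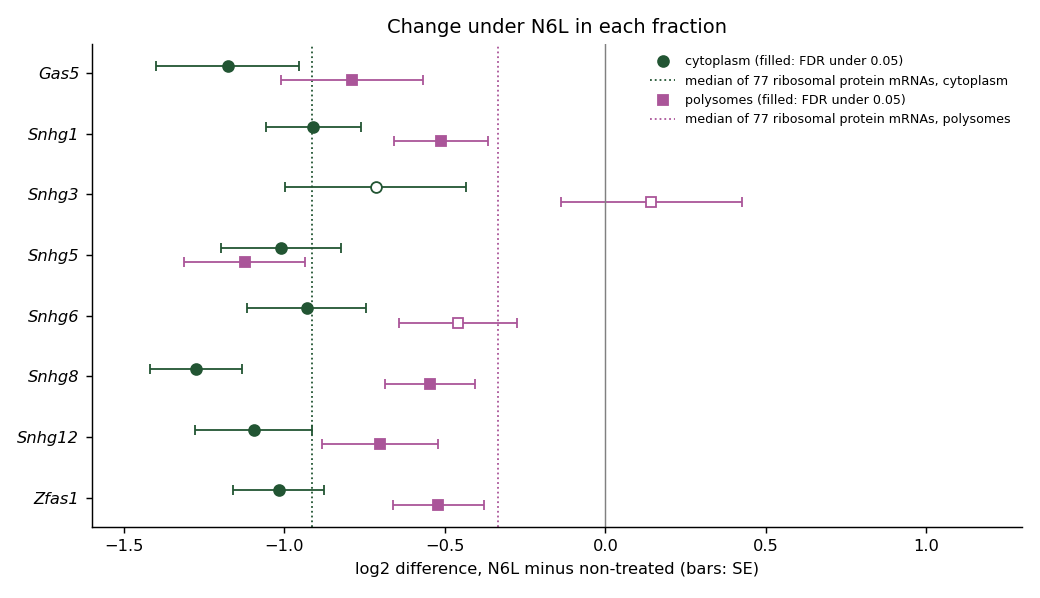
Fitted log2 difference between N6L and NT cells (horizontal axis, bars SE) for each host RNA in the cytoplasm (circles) and in polysomes (squares); filled symbols passed an FDR of 0.05 and dotted lines mark the medians of 77 ribosomal protein mRNAs. Cytoplasmic values run from −1.28 to −0.72 and polysomal values from −1.12 to 0.14, and Snhg5 alone has its polysomal value to the left of its cytoplasmic one.

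The next question was how these noncoding RNAs were distributed between polysomes and cytoplasm compared with coding mRNAs. The log2 ratio of the polysomal to the cytoplasmic level was taken within each culture; since both are shares of a library, a value of 0 means the same share in both and does not give the fraction of molecules on ribosomes. The paper reports that N6L strongly lowered the polysome peaks. A higher ratio under N6L thus does not by itself mean more molecules on polysomes than in NT cells. The median ratio of coding genes was between −0.04 and 0.05 in every culture.

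In non-treated cells the host RNAs were spread over the coding range. Snhg1 and Snhg12 alone, 2 of 8, lay above the coding median in all 3 NT cultures, as did 31.1% of coding genes. With the length and GC offset it was 1 member, and the coding share at that setting is not given here. Snhg12 had log2 ratios of 0.05, 0.28 and 0.44 in NT cultures 1, 2 and 4, and Snhg1 had 0.31, 0.18 and 0.09. Snhg3 was below the coding median in each NT culture, with −0.17, −0.22 and −0.42, which put it at coding percentiles 34.7, 28.7 and 16.2. Gas5 varied most, with 0.59, −0.12 and −0.49, from percentile 96.9 in culture 1 to 13.3 in culture 4. Snhg6 had 0.07, −0.32 and −0.51. Zfas1, with 0.33, 0.25 and 0.00, went from coding percentile 87.0 to 46.8. Snhg5, with 0.30, 0.00 and 0.06, lay between percentiles 45.0 and 85.4, and Snhg8, with 0.24, 0.10 and −0.14, between 33.5 and 79.6. In the fit no member passed in either direction, where 0.209% of all genes did, all of them lower in polysomes; DESeq2 and the fit with the culture as a block called no member either, and no member had an unadjusted p under 0.05, the smallest being 0.214 for Zfas1 and Snhg12.

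In N6L cells 6 of 8 members were above the coding median in all 3 cultures, compared with 38.1% of coding genes. Snhg5 and Snhg6 were the exceptions, both below it in culture 3. With the length and GC offset 3 of 8 members were above it, and the coding share at that setting is not given here. All 8 were above the 75th coding percentile in culture 1, 5 in culture 2 and 4 in culture 3. The fit called 4 members higher in polysomes than in the cytoplasm, where 18.4% of all genes were, and none lower, where 20.6% of all genes were. With the offset 2 members were called higher, where 1251 of 13889 genes were, and 1011 genes were called lower.

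Snhg8 had a fitted difference of 0.79 ± 0.14 (edgeR FDR = 0.00427), with ratios of 0.81, 0.84 and 0.71 in N6L cultures 1, 2 and 3. Zfas1 followed with 0.68 ± 0.14 (edgeR FDR = 0.00523) and ratios of 0.74, 0.67 and 0.63. Snhg12 had 0.63 ± 0.18 (edgeR FDR = 0.0159) and Snhg1 0.58 ± 0.15 (edgeR FDR = 0.00938). The ratios of Snhg1 were 0.56, 0.54 and 0.65, so Snhg1, Snhg8 and Zfas1 each varied by an SD of at most 0.07, while those of Snhg12 were wider, at 0.34, 0.60 and 0.91. Without N6L culture 2, or without culture 3, Snhg1 and Snhg12 no longer passed, and Snhg8 and Zfas1 did.

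The 4 remaining members did not pass. Snhg3 had 0.57 ± 0.28 (edgeR FDR = 0.119) with ratios of 0.28, 0.48 and 0.91, and it passed when the culture was used as a block (edgeR FDR = 0.0093). Gas5 had 0.41 ± 0.22 (edgeR FDR = 0.149) with 0.76, 0.38 and −0.03. Snhg6, with 0.53, 0.21 and −0.10, and Snhg5, with 0.52, −0.01 and −0.57, also spread across 0. Gas5, Snhg5 and Snhg6 thus had their lowest ratio in culture 3, where Snhg3 and Snhg12 had their highest.

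**Figure D3:**
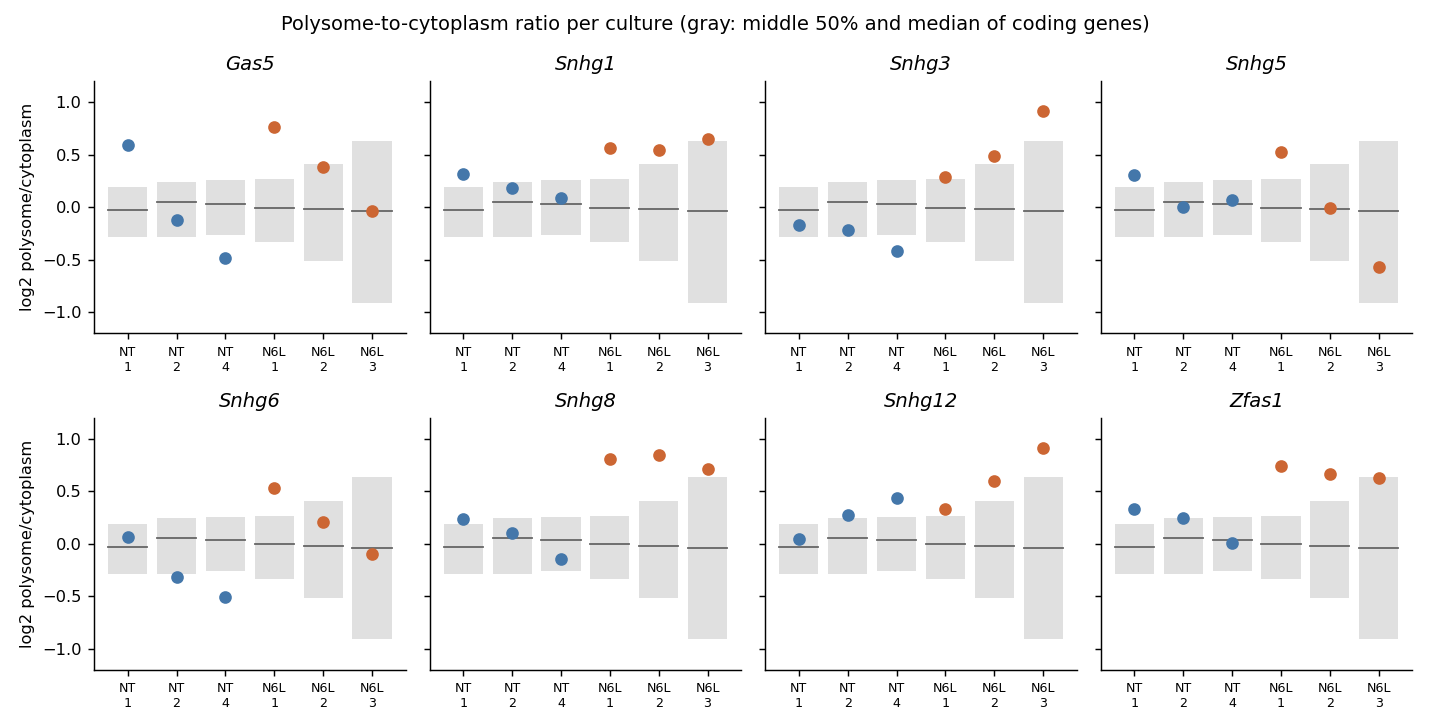
Log2 polysome-to-cytoplasm ratio of each host RNA in NT cultures 1, 2 and 4 (blue) and N6L cultures 1, 2 and 3 (orange), over the middle 50% (gray bar) and median (gray line) of the 12111 coding genes in the same culture. The gray bar is widest in N6L culture 3, and for Snhg1, Snhg3, Snhg8 and Zfas1 all orange points lie above all blue ones.

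The translational index (TI) compares the ratio in N6L cells with that in NT cells, here as a log2 difference. It was above 0 for 7 of 8 members, with a median of 0.43 against 0.01 over all genes, and no member passed the FDR threshold. The same holds for all genes, of which 0.00% were called by edgeR, and DESeq2 also called 0; 1074 of 13889 genes and 3 of the 8 members had an unadjusted p under 0.05 in edgeR. These 3 were Snhg3 with 0.86 ± 0.40 (unadjusted edgeR p = 0.0484), Snhg8 with 0.73 ± 0.20 (unadjusted edgeR p = 0.00249) and Zfas1 with 0.50 ± 0.20 (unadjusted edgeR p = 0.0256), each with an FDR of 0.555. Snhg6 had a TI of 0.47 ± 0.26, Snhg1 0.40 ± 0.21, Snhg12 0.40 ± 0.25 and Gas5 0.39 ± 0.31. Snhg5 was the exception with −0.11 ± 0.26, which became 0.12 without N6L culture 3.

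By culture, the ratios of Snhg1, Snhg3, Snhg8 and Zfas1 were higher in all 3 N6L cultures than in all 3 NT cultures, 4 of 8 members and 15.3% of all genes. With the length and GC offset 1 of 8 members was ordered this way, and the share of all genes at that setting is not given here. The mean difference was 0.83 for Snhg3, 0.72 for Snhg8, 0.49 for Zfas1 and 0.39 for Snhg1. Each gave the exact two-sided permutation p = 0.1, the smallest that 3 cultures against 3 allow, so this test could not reach 0.05. No member had all N6L ratios below the NT ones, as 14.4% of all genes did.

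Several of these values moved when an offset for transcript length and GC content was used. The host RNAs are short, and an offset per library for length and GC content reduced the median cytoplasmic change of the 8 genes from −1.01 to −0.50 and the calls from 7 to 4. Snhg12 (−0.89, edgeR FDR = 0.00508), Snhg8 (−0.66, edgeR FDR = 0.00141), Snhg5 (−0.61, edgeR FDR = 0.0133) and Snhg1 (−0.35, edgeR FDR = 0.0265) still fell. Gas5 had −0.58, Snhg6 −0.42, Zfas1 −0.35 and Snhg3 −0.10 and did not pass. In polysomes Snhg5 alone fell (−0.87, edgeR FDR = 0.00319), and Snhg3 rose by 0.58 (edgeR FDR = 0.0493). Over all 13889 genes 1503 fell and 1421 rose there with the offset.

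With the same offset, Snhg1 (0.41, edgeR FDR = 0.0215) and Snhg8 (0.37, edgeR FDR = 0.0358) were still higher in polysomes than in the cytoplasm of N6L cells. The sign of the N6L difference turned for Zfas1 (−0.13), Gas5 (−0.24) and Snhg5 (−0.23). The TI of Zfas1 became −0.01 and that of Gas5 0.02, whereas Snhg3 kept 0.69 and Snhg8 0.50, none of them called. The 77 ribosomal protein mRNAs, which are short as well, went from a median TI of 0.60 to 0.22.

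**Figure D4:**
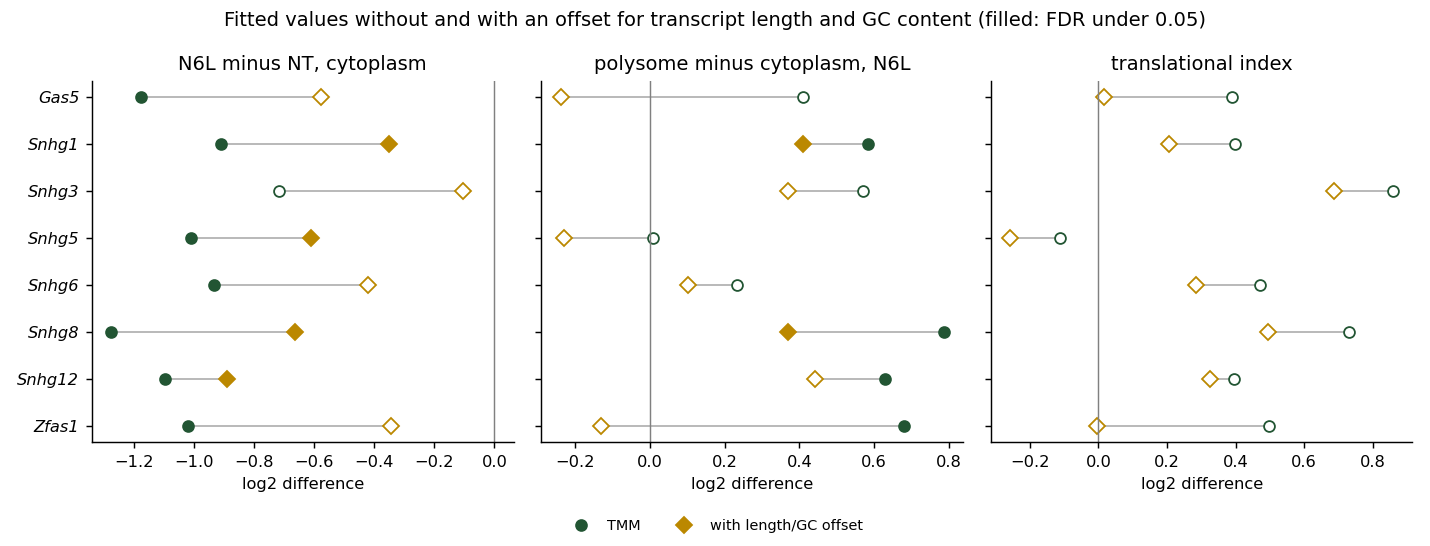
Fitted log2 values of the 8 host RNAs without (green circles) and with (yellow diamonds) an offset for transcript length and GC content, for the cytoplasmic change, the polysome-to-cytoplasm difference in N6L cells and the translational index; filled symbols passed an FDR of 0.05. All 8 cytoplasmic values move toward 0 and stay negative, and in N6L cells Gas5, Snhg5 and Zfas1 cross 0.

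Other gene groups give the setting for these values. Of the other noncoding snoRNA hosts 6 were tested. In the cytoplasm Snhg20 (−1.68, edgeR FDR = 0.00196) and Epb41l4aos (−0.93, edgeR FDR = 0.00665) fell, and Snhg9 (−1.04), Snhg15 (−0.55), Snhg17 (−0.16) and Snhg18 (0.49) did not pass. In N6L cells Epb41l4aos (0.67), Snhg15 (0.56) and Snhg17 (0.55) were higher in polysomes, and the median of the 6 was 0.56, beside 0.58 for the 8 members. With the length and GC offset 1 of the 6 was higher, and the medians were 0.03 for the 6 and 0.24 for the 8. None of the 6 has an annotated transcript that begins with the tract described above.

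The coding hosts were a mixed group. Of the 40 tested, 24 fell and 1 rose in the cytoplasm, with a median of −0.50, and 19 were higher and 7 lower in polysomes than in the cytoplasm under N6L, with a median of 0.46. With the length and GC offset 17 fell and 1 rose in the cytoplasm, and 6 were higher and 4 lower in N6L polysomes, with a median of 0.02. Rpl13 (1.05) and Rpl27a (1.03), which encode large-subunit proteins, had the highest polysome-to-cytoplasm differences, and Ncl (−1.30), encoding nucleolin, the protein N6L binds, and Dkc1 (−1.15), encoding the pseudouridine synthase of H/ACA particles, the lowest. Without the offset, the 19 coding hosts that are not ribosomal protein genes had a median cytoplasmic change of −0.11, with 3 lower and 1 higher, and a median polysome-to-cytoplasm difference of −0.32 in N6L cells, with 3 higher and 7 lower.

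Ribosomal protein mRNAs, the main class of 5′TOP transcripts, had 75 of 77 lower in the cytoplasm (median −0.91), 2 lower in polysomes (median −0.33) and 71 higher in polysomes than in the cytoplasm of N6L cells (median 0.85). With the length and GC offset 41 of the 77 were lower in the cytoplasm (median −0.37) and 9 in polysomes (median −0.19), and 21 were higher and 1 lower in N6L polysomes than cytoplasm (median 0.22). The ends of that last range without the offset were Rpl36 (1.25), Fau (1.17), Rps2 (0.35) and Rpl4 (−0.01). The 850 other long noncoding genes tested had a median of −0.14 in the cytoplasm, where 100 fell and 52 rose, and of 0.31 for the N6L polysome-to-cytoplasm difference, where 104 were higher and 53 lower. Of the long RNAs known to stay in the nucleus, 3 were tested. All 3 were called lower in N6L polysomes than in the N6L cytoplasm, as were 20.6% of all genes. The differences were −1.37 for Kcnq1ot1, which had 8 to 70 counts per library, −0.95 for Malat1 and −0.92 for Neat1. In NT cells they were −0.86, −0.73 and −0.79, and none was called. Neat1 rose in the cytoplasm by 2.01 on the log2 scale, opposite to the host RNAs.

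Of the 8 mRNAs of snoRNP core proteins, which bind the mature snoRNAs, 6 fell in the cytoplasm, where 13.8% of all genes fell, from Nhp2 (−1.33) and Snu13 (−1.08) over Gar1 (−0.93), Nop10 (−0.88) and Fbl (−0.65) to Nop56 (−0.44), while Nop58 (−0.06) and Dkc1 (0.34) did not pass. Of the 9 snoRNP assembly factors Znhit3 (−0.84) and Ruvbl2 (−0.82), 2 genes, fell. The 14 NMD factors tested, whose pathway degrades several host RNAs, had 3 lower and 2 higher in the cytoplasm, where 13.8% of all genes were lower and 14.5% higher. Smg1, the kinase that phosphorylates Upf1, rose by 1.15 and Smg6, the endonuclease, by 0.68, whereas Rbm8a (−0.76), Magoh (−0.75) and Eif4a3 (−0.49), all of the exon junction complex, fell. Casc3, also of that complex, went the other way and did not pass (0.38, edgeR FDR = 0.0741).

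The libraries give no level of the intron-derived snoRNAs. Of the 32 snoRNA genes inside the hosts, 30 share bases with an annotated host exon, and 29 of these 30 had 0 counts in all 12 libraries. A read in shared bases matches both genes and could not be assigned to the snoRNA by counting per gene, so these 0 counts set no limit on its level. Snora73b, in Snhg3, had 533 counts in total, between 11 and 87 per library, and Snora73a and Snord87 had 26 each. The levels above are thus those of the host RNAs, and the mature snoRNAs were not measured.

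The genes with a profile most like the mean of the 8 hosts over the 12 libraries, among genes with at least 10 CPM on average, were Rps3a1 (Pearson r = 0.98), Mrpl32 (r = 0.97), Psmg2 (r = 0.97), Esd (r = 0.97) and Hikeshi (r = 0.97). These values describe 12 libraries that share 4 groups. The hosts' own correlation with their mean ran from 0.57 for Snhg3 to 0.98 for Snhg8.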

How the data were processed

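Reads were aligned by the authors with STAR to mm10 and counted per gene with HTSeq-count 0.5.3, as the paper and the submitters' processing notes state, after demultiplexing with bcl2fastq 2.18.0.12. The deposited values are raw counts for 4 technical replicates of each of 12 libraries made with oligo(dT) selection. For the annotation version and strand setting, nothing was found in the sources used. Technical replicates were summed, as their counts varied almost as Poisson sampling would (chi-square over its degrees of freedom, 1.02 to 1.04). Samples were grouped by their labels; 3 technical replicates of the N6L culture 2 cytoplasm carry conflicting labels, were kept, and were left out in an alternative.

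After filterByExpr and TMM scaling, edgeR 4.0.16 under R 4.3.3 fitted a quasi-likelihood model (glmQLFit, then glmQLFTest) to the 4 groups, without a block, with p-values adjusted by the Benjamini-Hochberg method over 13889 genes (limit 0.05). Standard errors are the log2 change divided by the square root of the F statistic. The code was tested on simulated data. Ratios per culture used log2 CPM with a prior count of 2. Symbols, lengths and GC content came from GENCODE vM21. Cytoplasm and polysomes of a culture come from 1 lysate, as the paper states, and are paired by it; as a check, the 2 libraries' departures from their groups had correlations of 0.364, 0.452 and 0.645 in NT and 0.0368, 0.199 and 0.229 in N6L cultures. DESeq2 1.42.0 and other scalings, filters, offsets, blocks and left-out cultures were the alternatives.

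All 8 members are named, with lists of 14 or fewer genes named where useful, the 2 highest and 2 lowest of longer lists by the N6L polysome-to-cytoplasm difference, and the 5 most similar genes. The members and lists were chosen with earlier results of these data known. Protein assays of the study were not analysed here.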

Additional observations from a re-analysis of the deposited data

How the results depend on the processing

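The 7 host genes lower in the cytoplasm stayed 7 or 8 under every alternative (leaving out a culture gave 7 to 8) except the length and GC offset, which left 4. Of all genes, 1922 were lower there in the main fit and 732 to 1893 when a culture was left out. The number was 2863 when only the cytoplasmic groups were fitted and 2148 with the offset. The 6 lower in polysomes became 4 with library size alone, 4 with technical replicate a alone, 3 without a filter on low counts, 1 when only the polysomal groups were fitted, 1 with the length and GC offset (which also called 1 higher) and 1 to 3 when a culture was left out; the replicate number as a replicate block gave 7 in the cytoplasm and 5 in polysomes. Over all genes, the 508 lower in polysomes became 70 when only the polysomal groups were fitted and 1503 with the offset. They became 312 with library size alone, 350 of 11885 with technical replicate a alone and 686 of 25915 without a filter. Leaving out a culture gave 17 to 695. The 4 higher in N6L polysomes than cytoplasm became 3 with library size alone, 5 without a filter, 2 with the offset and 2 to 4 when a culture was left out. Over all genes, the 2559 higher there became 1251 with the offset and 359 to 2964 when a culture was left out. They became 1762 with library size alone and 2294 of 25915 without a filter. With the culture as a replicate block the 4 members became 5, Snhg3 being added (0.56), and with block and offset 3. The block changed no other call of a member. Among all 13889 genes, the 2559 higher calls became 3622 with the block and 2254 with block and offset. Host genes with all N6L ratios above NT went from 4 to 1 with the offset, those above the coding median in all NT cultures from 2 to 1, and in all N6L cultures from 6 to 3. No alternative called a member in the NT ratio or the translational index. NT cultures 1 and 2 and N6L cultures 1 and 2 share only a number (correlations of deviations 0.228 and 0.0455 in the cytoplasm, 0.296 and 0.00756 in polysomes).

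Signs turned for values that had not passed, except Zfas1 in N6L. In the NT ratio, Gas5 became −0.041 with library size alone, −0.0085 with the culture block, −0.26 with the offset and −0.32 with both, and ran from −0.31 to 0.25 when a culture was left out; Snhg8 became −0.012 with library size alone, −0.13 with the offset and −0.13 with both, and ran from −0.032 to 0.15; Zfas1 became −0.13 and −0.14. In the N6L ratio, Gas5 became −0.24 with the offset and −0.33 with offset and block, Zfas1 −0.13 and −0.18, and Snhg5 −0.23 and −0.26. Snhg5 also became −0.11 with library size alone, −0.016 without a filter, −0.019 with technical replicate a alone, −0.017 without the conflicting replicates, −0.021 with the block and −0.0011 when only the compared groups were fitted, and ran from −0.26 to 0.24 when a culture was left out. In polysomes Snhg3 ran from −0.082 to 0.34. In the translational index Snhg5 ran from −0.38 to 0.12, Gas5 became −0.0065 with offset and block, and Zfas1 −0.0053 with the offset and −0.045 with both. The cause of these shifts was not tested beyond the construction of each alternative. Every member had at least 562 counts per library, and whether the depth or the spread between 3 cultures limits precision was not tested.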
